A study of Mus musculus with 6 samples.

Results

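The sialyl-, fucosyl- and O-glycan transferases described here are the genes whose platform symbol begins with St3gal, St6gal, St6galnac, St8sia, Galnt, B3gnt, B3galt, B4galt, Gcnt or Fut followed by a digit, 69 of the 18193 genes measured. Each gene was read from its brightest probe set with 1 symbol, the one with the highest mean over the 6 arrays, so mean level was the measured value that entered the choice. These enzymes sit in the Golgi and build the sugar chains of mucins, membrane proteins and glycolipids. Polypeptide GalNAc-transferases (Galnt) start an O-glycan on serine or threonine, Gcnt enzymes branch it, B3gnt, B4galt and B3galt enzymes lengthen it, and fucosyl- and sialyltransferases cap its ends. In the gut such caps make up much of the surface that microbes and lectins meet.

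RNA came from the distal jejunum of 3 mutant and 3 control littermates killed at 7 months of age, with 1 Affymetrix array per animal. In the mutants Hnf4a, which encodes a nuclear receptor of liver and gut epithelium, was deleted in the intestinal epithelium by Cre recombinase under the Villin promoter. All 6 animals carry the strain label B6.129X1(FVB)-Hnf4atm1.1Gonz/J, the floxed Hnf4a line, and all received ketamine and xylazine before they were killed. The labels do not say whether the controls carried Cre. The samples were whole jejunum biopsies, so fewer cells of a type and less RNA per cell cannot be told apart. Values are the authors' log2 signals.

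The deleted gene and a few marker lists bear on how the arrays can be read. Hnf4a read 8.83, 8.83 and 9.82 in mutants 1, 2 and 3, against 11.82, 11.76 and 11.57 in controls 1, 2 and 3, a fall of 5.88-fold (limma's moderated test, adjusted p = 0.00756, and 0.0506 without control 2). The position of its probe sets against the deleted stretch was not tested. Enterocyte markers were present in every array, at a mean log2 signal of 12.41 to 12.72 over the 6 measured genes in mutants and 12.79 to 12.94 in controls. Pancreatic acinar markers (6 measured) averaged 3.83 to 4.06 in mutants, and 3.92, 3.97 and 7.80 in controls 1, 2 and 3. Fat cell markers (4 measured) averaged 6.28, 8.05 and 6.05 in mutants 1, 2 and 3, and 6.37 to 6.49 in controls. Control 3 and mutant 2 stood apart on these lists, and results are also given without them. Mutant 3 and control 1 stood apart on sex-linked genes, with the pattern of males, while the other arrays had that of females. Each group thus mixed both patterns. The Y-linked gene Eif2s3y read 6.53 in mutant 3 and 2.58 to 2.65 in the other mutants, and 6.85 in control 1 and 2.57 to 2.75 in the other controls. Xist read 4.88 in mutant 3 and at least 7.94 in the other mutants, and 4.95 in control 1 and at least 8.50 in the other controls.

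St8sia6 was the 1 gene of the 69 that rose in the mutants, and 0 fell. It encodes a sialyltransferase that adds a sialic acid onto one already present, with a preference for O-glycans in the mouse. The call required an adjusted p under 0.05 in limma's moderated test, with Benjamini-Hochberg adjustment over all 18193 genes, and 0.528% of all genes met it (0.198% higher, 0.33% lower). The enzyme that starts core 2 branches, Gcnt1, had the largest difference of the family and missed the threshold (adjusted p = 0.0521). At an unadjusted p under 0.05 there were 10 members in the same test, 7 higher and 3 lower, or 14.5% of the family beside 12.1% of all genes (5.24% higher, 6.85% lower). The 3 mutants lay wholly above the 3 controls in 8 members and wholly below in 4, together 17.4% of the family beside 17.1% of all genes (6.93% above, 10.2% below). Both totals lie near those of all genes and are not a result about the family. By direction the family had 10.1% higher and 4.35% lower at the unadjusted threshold, and 11.6% wholly above and 5.80% wholly below. Whether this split differs from that of all genes was not tested.

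**Figure D1:**
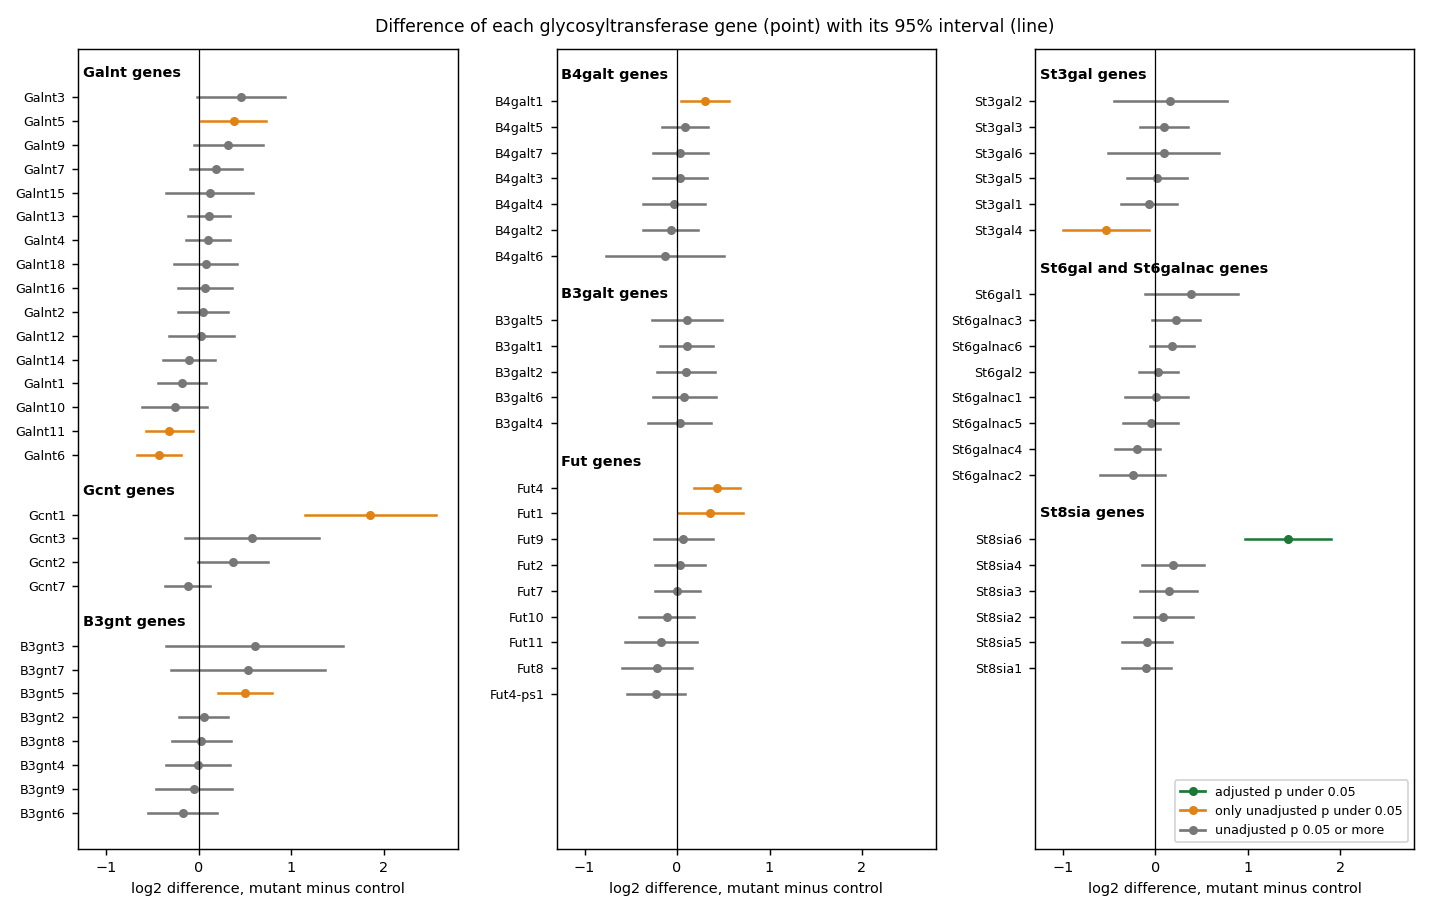
Log2 difference (horizontal axis, mutant minus control) of each of the 69 transferase genes, grouped by gene family, with the limma estimate as a point and its 95% interval as a line. St8sia6 (green) passed the adjusted test, 9 genes (orange) passed the unadjusted threshold alone, and most others lie near 0.

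Most members moved little. The median difference over the 69 genes was 0.05 (log2), beside -0.01 over all genes, and the median size of a difference without its sign was 0.11 in both. Mutant means lay above control means in 46 members and below in 23, that is above in 66.7% of the family and in 46.7% of all genes. Only St8sia6 and Gcnt1 differed at least 2-fold, and for 63 members the 95% interval of the difference stayed within 2-fold in either direction. In 14 members all 6 arrays read below the median probe set, where signal is close to background, and in 45 all 6 arrays read above it. Fut1, Fut2, Fut9 and St8sia1 were among the dim ones, and a difference in them may be understated.

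The promoter of St8sia6, the member that passed the test, and the stretch of the B3gnt3 promoter that holds the single exact match to an HNF4 recognition sequence are shown for the results that follow. Sequences are from RefSeq, build GRCm38.p6, on the strand of the gene, and capitals mark the match.
St8sia6: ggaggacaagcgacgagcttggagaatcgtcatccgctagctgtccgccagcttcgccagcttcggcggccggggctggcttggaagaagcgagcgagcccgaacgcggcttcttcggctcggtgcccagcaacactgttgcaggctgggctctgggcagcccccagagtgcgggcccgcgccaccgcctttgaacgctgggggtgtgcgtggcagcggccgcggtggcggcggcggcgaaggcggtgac
B3gnt3: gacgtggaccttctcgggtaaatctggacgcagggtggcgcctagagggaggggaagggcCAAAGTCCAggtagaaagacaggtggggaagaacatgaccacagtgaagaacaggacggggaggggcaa
The first run is the 250 bases before the St8sia6 start, chr2:13793521-13793770, minus strand, and the second is chr8:71701886-71702014, minus strand. The St8sia6 stretch has 70.8% G or C and 30 CG pairs, beside medians of 52.4% and 6 over the same stretch of all promoters in the table. The motif searched was CAAAGTCCA, on both strands, from 250 bases before to 50 after each start, and then the looser CAAAGNNCA, which includes it. Of the 69 members, 49 matched the table, with 68 promoters. The exact motif stood in 1 of these, that of B3gnt3, and in 0.475% of all 32851 promoters. The looser motif stood in 2, those of B3gnt3 and St6gal1, and in 6.36% of all promoters. A match describes letters in this window and is not a measured binding site.

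Among the St8sia genes, St8sia6 read 5.78, 6.15 and 6.25 in mutants 1, 2 and 3, against 4.53, 5.04 and 4.30 in controls 1, 2 and 3. The groups did not overlap, with mutant 1 the lowest mutant and control 2 the highest control. Its mean was 6.06 ± 0.25 in mutants and 4.63 ± 0.38 in controls (SD, n = 3 each), a log2 difference of 1.43 ± 0.20 SE (95% interval 0.96 to 1.90) or 2.70-fold, with an adjusted p of 0.0307 in limma's moderated test. The array carries 2 further St8sia6 probe sets. The first read 3.85, 4.40 and 4.68 in mutants and 3.24, 3.28 and 3.11 in controls, a difference of 1.10 ± 0.20 SE. The dimmest read 3.56 to 3.72 in mutants and 3.30 to 3.37 in controls, a difference of 0.34 ± 0.09 SE. All 3 probe sets thus placed every mutant above every control. In the dimmest, however, every array lay below the median probe set, and in the first further one the controls and mutant 1 did. In a fit of all 45037 probe sets, where 0.193% were called, the 3 had adjusted p of 0.0536, 0.112 and 0.284 in limma's test.

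The St8sia6 call depended on the arrays and on the setting, and it held in 10 of 18 other settings. With all arrays kept it was lost in limma's test with a floor under low values (adjusted p = 0.113) or with the replicate number as a block (adjusted p = 0.0503). It was also lost in a linear model with no moderation of the variance (adjusted p = 0.337). In limma's refits with 1 array left out it was lost without control 1, control 3, mutant 2 or mutant 3, at adjusted p of 0.0895, 0.127, 0.108 and 0.0617. It stood without control 2 (adjusted p = 0.0385) or mutant 1 (adjusted p = 0.0427). The difference stayed between 1.27 and 1.64 in these refits, and was 1.23 (adjusted p = 0.398) when both control 3 and mutant 2 were dropped. T cell markers had a mean over 11 measured genes of 6.70, 7.31 and 6.91 in mutants 1, 2 and 3 and of 6.82, 5.62 and 6.21 in controls 1, 2 and 3. In limma's test 0 of the 11 passed the adjusted threshold, and 7 were higher at an unadjusted p under 0.05, beside 5.24% of all genes. Control 1 lay inside the mutant range for these markers, and it was also the highest control for Gcnt1 and the middle one for St8sia6. Tuft cell markers (7 measured, 1 called) averaged 5.21 to 5.41 in mutants and 4.86 to 5.13 in controls, and goblet cell markers (8 measured, 0 called) 12.15 to 12.35 in mutants and 11.95 to 12.10 in controls. Paneth cell markers (5 measured, 0 called) averaged 12.15 to 12.30 in mutants and 11.92 to 12.07 in controls, but did not move together. Lyz1 was lower in every mutant than in every control (difference -0.31), while Mmp7, Pla2g2a, Itln1 and Ang4 differed by 0.64, 0.55, 0.21 and 0.10. Macrophage and myeloid markers (8 measured, 0 called) averaged 6.98 to 7.20 in mutants and 6.82 to 6.94 in controls. Of them Lyz2 (-0.35) was wholly lower, Cd14, Csf1r and Adgre1 (0.60, 0.40 and 0.28) were wholly higher, and the others overlapped. B and plasma cell markers (8 measured, 0 called) averaged 7.55 to 7.96 in mutants, and 7.86, 7.07 and 6.69 in controls 1, 2 and 3. Enteroendocrine markers (9 measured) averaged 8.07 to 8.15 in mutants and 8.06 to 8.18 in controls. Of these 9, 1 was called higher and 2 lower, beside 0.198% and 0.33% of all genes. The part of these lists in the St8sia6 and Gcnt1 values was not tested.

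**Figure D2:**
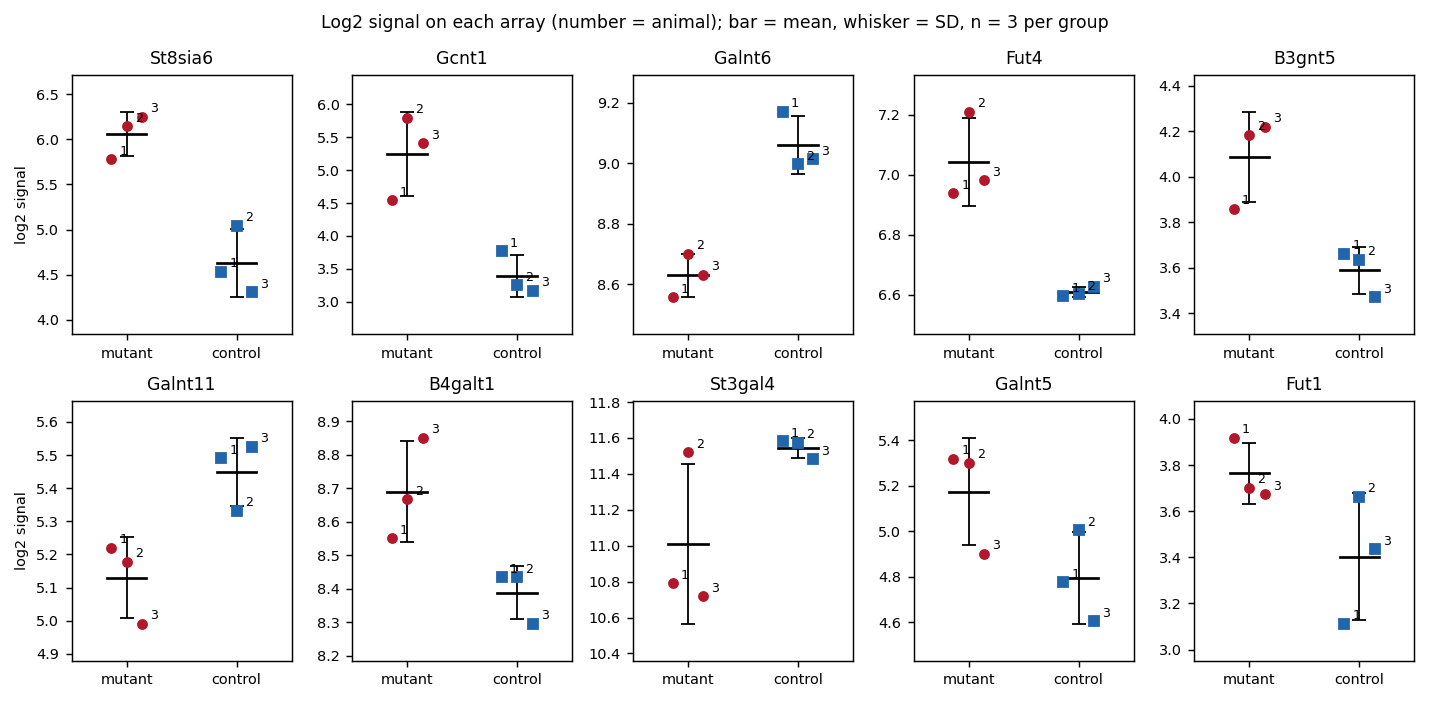
Log2 signal (vertical axis, a separate scale for each gene) on each array of the 10 members with an unadjusted p under 0.05, in order of p, mutants in red and controls in blue, with the mean and SD of 3 animals. St8sia6 and Gcnt1 show the widest gaps between groups, and mutant 2 sits with the controls for St3gal4.

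The other St8sia genes stayed close to their control values. St8sia4, which makes polysialic acid together with St8sia2, read 5.87, 6.24 and 6.30 in mutants and 5.91, 6.12 and 5.82 in controls, so the groups overlapped. Its difference of 0.19 had a 95% interval of -0.15 to 0.52. St8sia3 differed by 0.14 (interval -0.17 to 0.45), and St8sia1, the GD3 ganglioside synthase, St8sia2 and St8sia5 by -0.10, 0.09 and -0.09. None of these 5 passed the test, and St8sia1 read below the median probe set on every array.

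Gcnt1, which forms core 2 branches on O-glycans in many cell types, read 4.54, 5.79 and 5.41 in mutants 1, 2 and 3, against 3.76, 3.25 and 3.16 in controls. Every mutant stood above every control, mutant 1 was the lowest mutant and control 1 the highest control. The means were 5.25 ± 0.64 in mutants and 3.39 ± 0.33 in controls (SD, n = 3 each), a log2 difference of 1.86 ± 0.31 SE (95% interval 1.15 to 2.56) or 3.62-fold, with an adjusted p of 0.0521 in limma's test. All 3 control values lay below the median probe set, so the size of the fold is uncertain. A second, dimmer probe set read 3.62, 3.89 and 3.43 in mutants and 3.31, 3.19 and 3.02 in controls, a difference of 0.47 ± 0.14 SE (adjusted p = 0.328 over all probe sets in limma's test). Over 18 other settings the adjusted p of Gcnt1 ran from 0.0182 with limma's array weights to 0.436 without control 3 and mutant 2, and it passed in 6 of them.

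**Figure D3:**
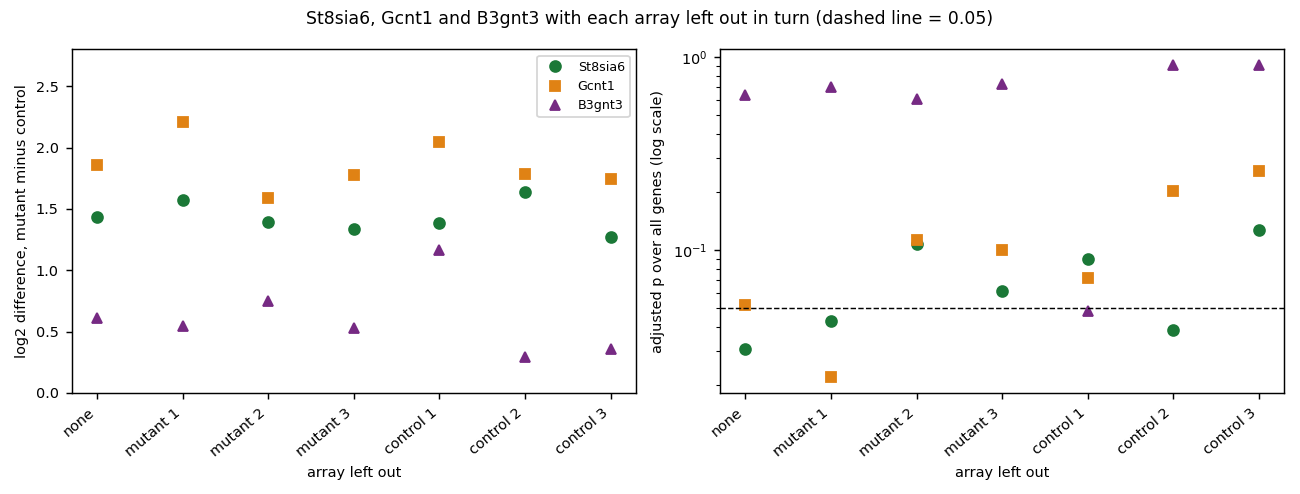
Log2 difference, mutant minus control (left), and adjusted p over all genes on a log axis (right) for St8sia6, Gcnt1 and B3gnt3, with all arrays (none) and with each array left out in turn. The differences of St8sia6 stay between 1.27 and 1.64, while its adjusted p crosses 0.05 (dashed line) depending on the array left out.

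**Figure D4:**
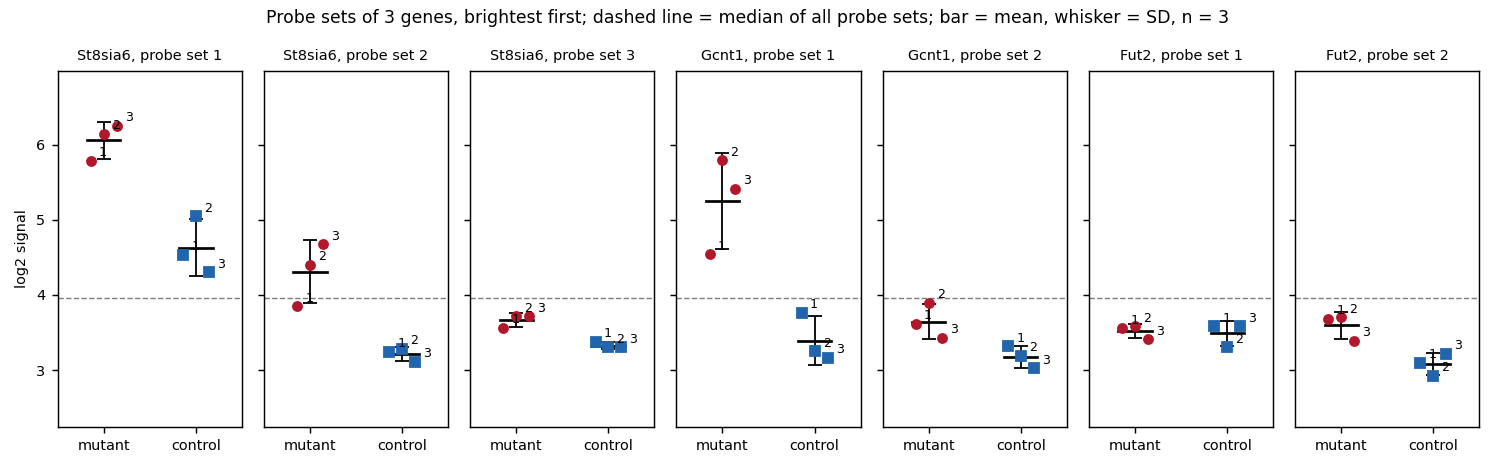
Log2 signal (vertical axis) on each array for the probe sets of St8sia6 (3), Gcnt1 (2) and Fut2 (2), each gene's brightest first, with the mean and SD of 3 mutants and 3 controls and the median of all probe sets as a dashed line. The mutants lie above the controls in all probe sets of St8sia6 and Gcnt1 and in the second of Fut2.

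Gcnt3 is the core 2 and core 4 branching enzyme of mucin-secreting gut epithelium. It read 7.77, 7.75 and 8.99 in mutants 1, 2 and 3, against 7.55, 7.82 and 7.42 in controls. On this chosen probe set mutant 3 alone stood high, and the other mutants lay within the control range. The difference was 0.57 ± 0.31 SE (adjusted p = 0.54 in limma's test), and 0.16 without mutant 3. Both further probe sets of Gcnt3 were also highest in mutant 3, at 8.10 and 5.39, against at most 6.5 and 3.93 on the other arrays. In the brighter of them mutants 1 and 2, at 6.47 and 6.50, also lay above every control (6.12 to 6.25). Its difference was 0.82 ± 0.39 SE. In the dimmer one mutants 1 and 2 lay within the control range. Gcnt2, which branches lactosamine chains into the I antigen, differed by 0.37 ± 0.16 SE (adjusted p = 0.424), and its 7 further probe sets gave differences between -0.21 and 0.25. Gcnt7 differed by -0.12 and read below the median probe set throughout.

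B3gnt7, a chain-extending enzyme, and Galnt3, an initiating enzyme picked out here after its values were seen, showed the same array as Gcnt3. B3gnt7 read 5.82, 5.76 and 7.23 in mutants 1, 2 and 3, against 5.92, 5.80 and 5.51 in controls, a difference of 0.53 ± 0.36 SE, or 0.05 without mutant 3. Galnt3 read 7.70, 7.68 and 8.48 in mutants, against 7.43, 7.48 and 7.58 in controls, a difference of 0.45 ± 0.21 SE, or 0.19 without mutant 3. Mutant 3 alone stood high in both genes, the groups overlapped for B3gnt7 and not for Galnt3, and neither gene passed the test. Goblet cell markers were likewise highest in mutant 3, at a mean of 12.35, against 12.15 and 12.23 in mutants 1 and 2 and at most 12.10 in controls. Paneth cell markers were also highest in mutant 3, at 12.30, against 12.15 and 12.26 in mutants 1 and 2. B and plasma cell markers averaged 7.96 in mutant 3, against 7.71 and 7.55. Enterocyte markers were lowest in mutant 3, at 12.41, against 12.72 and 12.64. The part of these lists in the mutant 3 values of the 3 genes was not tested. Mutant 3 also had the highest Hnf4a signal of the mutants, 9.82 against 8.83 and 8.83, and the part of that level was not tested. It is also the mutant with the high Y-linked signal. With that signal as a covariate the differences were 0.58 for Gcnt3, 0.54 for B3gnt7 and 0.46 for Galnt3, with adjusted p of 0.405, 0.384 and 0.338 in limma's test. Each group holds a single array with high Y-linked signal, so this covariate could hardly move a group difference. The part of that signal in the mutant 3 values was not tested.

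**Figure D5:**
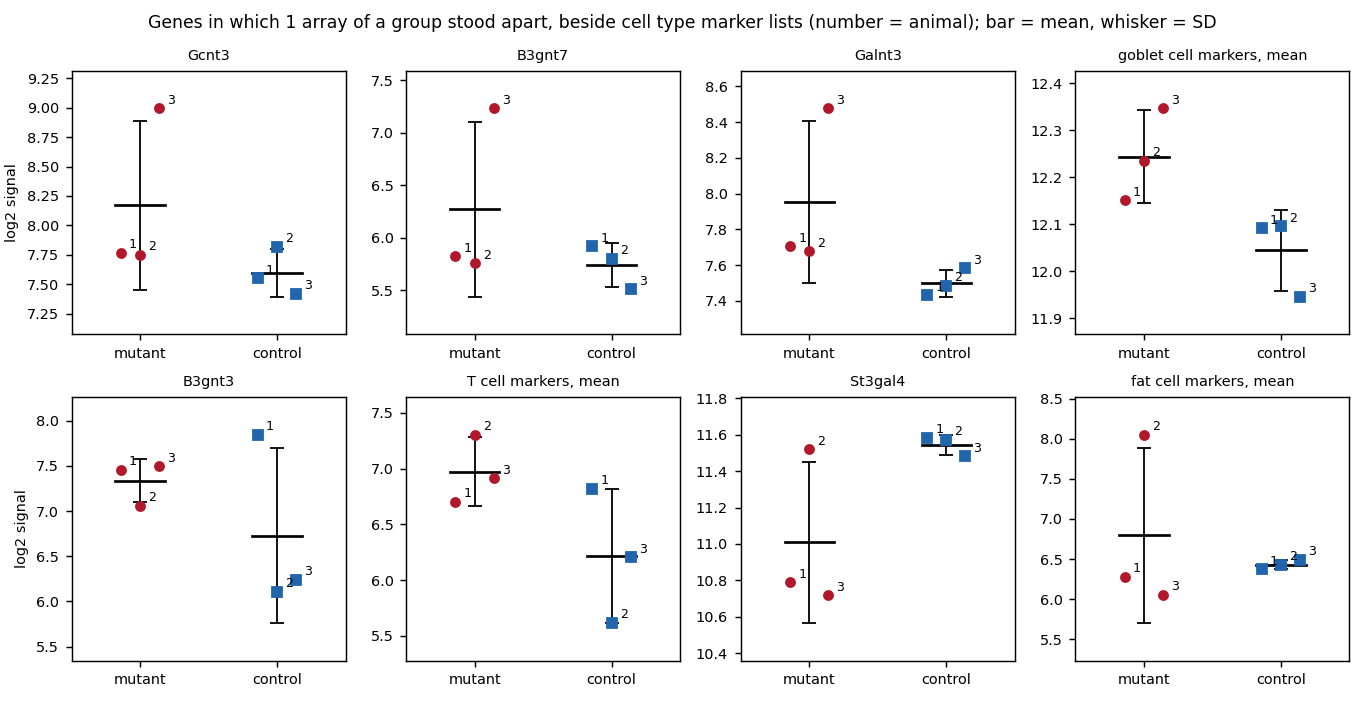
Log2 signal (vertical axis, a separate scale in each panel) on each array for 5 genes and for the mean of the goblet, T cell and fat cell marker lists, with the mean and SD of 3 mutants (red) and 3 controls (blue). Mutant 3 stands high for Gcnt3, B3gnt7 and Galnt3, control 1 for B3gnt3, and mutant 2 for St3gal4 and the fat markers.

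B3gnt3, which extends core 1 O-glycans, varied most among the controls. It read 7.46, 7.06 and 7.50 in mutants 1, 2 and 3, against 7.85, 6.11 and 6.24 in controls 1, 2 and 3. Control 1 exceeded all mutants, whereas controls 2 and 3 lay below them. With all arrays the difference was 0.61 ± 0.42 SE (adjusted p = 0.638 in limma's test). Without control 1 it was 1.17 and passed the test (adjusted p = 0.0482), while it was 0.30 without control 2 and 0.36 without control 3. Control 1 also had the highest T cell marker mean of the controls, 6.82 against 5.62 and 6.21. The same held for B and plasma cell markers, 7.86 against 7.07 and 6.69. It held too for macrophage and myeloid markers (6.94 against 6.84 and 6.82) and enterocyte markers (12.94 against 12.79 and 12.82). In mutants 1, 2 and 3 T cell markers averaged 6.70, 7.31 and 6.91, and B and plasma cell markers 7.71, 7.55 and 7.96. The part of any of these cells was not tested. Control 1 is also the control with the high Y-linked signal. With that signal as a covariate the B3gnt3 difference was 0.62 (adjusted p = 0.435 in limma's test). As an array of each group has that signal, the covariate could hardly move the difference. The part of the signal in the control 1 value was not tested.

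B3gnt5, the enzyme that starts lacto-series glycolipids, read 3.86, 4.18 and 4.22 in mutants and 3.66, 3.63 and 3.47 in controls. The groups did not overlap, but all control values and mutant 1 lay below the median probe set. The difference was 0.50 ± 0.13 SE with an adjusted p of 0.168 in limma's test. Its other probe set read below the median probe set on every array, at 2.36 to 2.54 in mutants and 2.28 to 2.37 in controls. Of the other B3gnt genes, B3gnt2, the main polylactosamine synthase, differed by 0.05 (interval -0.21 to 0.32), and B3gnt6, the core 3 synthase of the gut, by -0.17 (interval -0.54 to 0.20).

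Polypeptide GalNAc-transferases, 16 genes, held no called member, with 1 higher and 2 lower at an unadjusted p under 0.05, beside 5.24% and 6.85% of all genes. Galnt6 had the smallest p of them. It read 8.56, 8.70 and 8.63 in mutants, against 9.17, 9.0 and 9.01 in controls, and the groups did not overlap. The difference was -0.43 ± 0.10 SE (interval -0.66 to -0.20), with an adjusted p of 0.142 in limma's test. A second probe set gave -0.55 ± 0.19 SE and the dimmest -0.09 ± 0.10 SE, so the direction was shared by all 3.

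Galnt11, known to glycosylate Notch1, read 5.22, 5.18 and 4.99 in mutants and 5.49, 5.33 and 5.52 in controls, again without overlap, a difference of -0.32 ± 0.11 SE (adjusted p = 0.294). Galnt5 read 5.32, 5.30 and 4.90 in mutants and 4.78, 5.0 and 4.60 in controls, where mutant 3 fell below control 2. Its difference was 0.38 ± 0.15 SE (adjusted p = 0.373). Galnt4 and Galnt7, which act on peptides already carrying a GalNAc, differed by 0.10 and 0.19, and the broadly expressed initiators Galnt1 and Galnt2 by -0.18 and 0.05, none past the test. For Galnt7 and Galnt10 the next brightest probe set gave 0.38 ± 0.12 SE and -0.36 ± 0.12 SE, beside 0.19 and -0.26 in the chosen probe sets. The choice of probe set thus changed the size but not the direction for these 2 genes, named here after their values were seen.

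Galactosyltransferases were close to flat. B4galt1, the main enzyme of lactosamine synthesis, read 8.55, 8.67 and 8.85 in mutants, against 8.43, 8.43 and 8.30 in controls. Every mutant stood above every control by a small margin, and the difference was 0.30 ± 0.11 SE (adjusted p = 0.335 in limma's test). B4galt5 and B4galt6, the lactosylceramide synthases, differed by 0.09 and -0.13, the second with mutant 3 at 10.11 and the other mutants at 9.01 and 9.03. B4galt2 differed by -0.07. The 5 B3galt genes all had differences between 0.03 and 0.11. B3galt5, the gut enzyme of type 1 chains, read 4.0, 4.28 and 4.62 in mutants and 4.09, 4.15 and 4.34 in controls (difference 0.11, interval -0.27 to 0.48). B3galt1 and B3galt2 differed by 0.10 each and read below the median probe set on every array.

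Fucosyltransferases, 9 genes, had 2 members higher at an unadjusted p under 0.05, beside 5.24% of all genes, and 0 called. Fut4, which makes Lewis x and related antigens, read 6.94, 7.21 and 6.98 in mutants, against 6.60, 6.60 and 6.63 in controls. The controls lay close together, and all mutants were above them. The difference was 0.43 ± 0.11 SE (interval 0.19 to 0.68), with an adjusted p of 0.156 in limma's test. A dimmer Fut4 probe set gave 0.25 ± 0.17 SE with overlapping groups. Fut4-ps1, annotated as a transcribed pseudogene, differed by -0.23 ± 0.13 SE, and whether its probes also detect Fut4 was not tested.

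Fut1 and Fut2 make the H antigen. Fut1 read 3.92, 3.70 and 3.67 in mutants and 3.11, 3.66 and 3.43 in controls, just short of overlap and wholly below the median probe set, a difference of 0.36 ± 0.15 SE (adjusted p = 0.4 in limma's test). The chosen Fut2 probe set read 3.56, 3.58 and 3.41 in mutants and 3.58, 3.30 and 3.58 in controls, a difference of 0.03 ± 0.12 SE. A second Fut2 probe set, with a mean only 0.17 lower, read 3.68, 3.71 and 3.39 in mutants and 3.10, 2.92 and 3.21 in controls, a difference of 0.52 ± 0.13 SE (adjusted p = 0.23 over all probe sets in limma's test). The probe sets of Fut2, compared after their values were seen, therefore disagreed on whether the groups overlapped. Fut8, which adds the core fucose of N-glycans, differed by -0.22 (interval -0.60 to 0.16).

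St3gal4, which caps galactose with sialic acid, was the sialyltransferase with the lowest difference. It read 10.79, 11.52 and 10.72 in mutants 1, 2 and 3, against 11.58, 11.57 and 11.48 in controls. Mutants 1 and 3 stood below all controls, and mutant 2 lay among them. The difference was -0.54 ± 0.20 SE (adjusted p = 0.337 in limma's test) and -0.79 without mutant 2 (adjusted p = 0.0627). Mutant 2 is the array with the high fat cell markers, and their part in this value was not tested. The gene has 1 probe set on the array.

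St3gal6 read 7.49, 7.74 and 7.21 in mutants and 6.77, 7.62 and 7.78 in controls, a difference of 0.09 ± 0.26 SE. Another of its probe sets read 7.02, 7.00 and 7.04 in mutants and 7.25, 7.29 and 7.23 in controls, a difference of -0.24 ± 0.09 SE with an adjusted p of 0.43 over all probe sets in limma's test. This was the only member with a further probe set that moved the opposite way at an unadjusted p under 0.05. St3gal2 differed by 0.16, with mutant 2 at 4.79 and the other arrays at 3.63 to 4.06, and St3gal3 by 0.09.

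St6gal1, which puts sialic acid on N-glycans, read 6.85, 6.61 and 7.26 in mutants and 6.60, 6.82 and 6.13 in controls, so the groups overlapped. The difference was 0.39 ± 0.22 SE (interval -0.11 to 0.89). St6galnac3 and St6galnac4, which sialylate the GalNAc of O-glycans, differed by 0.22 and -0.19 and read below the median probe set on every array. St6galnac1 and St6galnac2, which act on mucin O-glycans, differed by 0.01 and -0.25 (intervals -0.33 to 0.35 and -0.60 to 0.10). None of these passed the test.

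Agreement among probe sets was checked across the family. The 46 members with more than 1 probe set had 80 further ones, of which 54 differed in the same direction as the chosen probe set and 26 in the opposite one. For the 6 members that had an unadjusted p under 0.05 and further probe sets, all 8 of these shared the direction. Apart from those of Galnt6, these further probe sets had means below the median probe set. The 6 members were also picked by p on the same arrays. In the fit of all probe sets 0 of the family's 149 were called by limma's test, and 8 of the 80 further ones had an unadjusted p under 0.05, beside 9.69% of all probe sets.

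The 41 members not named by the rule differed by between -0.26 and 0.45, 24 above and 17 below the control mean. Their smallest unadjusted p in limma's test was 0.0595, that of Galnt3, and the 95% interval stayed within 2-fold for all 41.

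Genes around these enzymes were read from 9 lists, namely sugar-nucleotide supply for sialic acid, fucose and galactose or GalNAc, core 1 and blood group synthesis, protein O-fucosylation, N-glycan branching, sulfation, glycan breakdown and mucins. Among the 88 genes measured, Fuca2 alone passed the test, as lower, and 0 were higher, while 0.33% of all genes were called lower. The median difference was -0.01, the same as over all genes. At an unadjusted p under 0.05 there were 6 higher and 13 lower, beside 5.24% of all genes higher and 6.85% lower.

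Fuca2, an alpha-fucosidase that removes fucose from glycans, was the gene that fell. It read 7.83, 7.97 and 7.65 in mutants 1, 2 and 3, against 8.92, 9.04 and 9.18 in controls, a clear gap between groups. The difference was -1.23 ± 0.12 SE, or 2.35-fold lower, with an adjusted p of 0.00756 in limma's test. The 2 dimmer probe sets gave -0.18 ± 0.11 SE and -0.34 ± 0.12 SE, in the same direction and smaller. With the mean of the 3 probe sets the difference was -0.58 and missed the threshold (adjusted p = 0.054). The call was also lost in refits that dropped control 2 (adjusted p = 0.0506), control 3 (adjusted p = 0.0554), or both control 3 and mutant 2 (adjusted p = 0.186).

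Within the sialic acid pathway the enzymes pointed both ways. Nanp, the phosphatase of the last step to free sialic acid, read 7.48, 7.40 and 7.14 in mutants and 7.85, 7.79 and 7.83 in controls (difference -0.48 ± 0.12 SE, adjusted p = 0.148 in limma's test). Nans, the synthase just before it, read 8.78, 9.01 and 8.81 in mutants and 8.62, 8.48 and 8.55 in controls (difference 0.32 ± 0.11 SE, adjusted p = 0.281). Neither pair of groups overlapped, and neither gene passed. Cmas, which activates sialic acid, differed by 0.22. Npl, which cleaves free sialic acid, read 7.89, 8.04 and 6.99 in mutants and 8.22, 8.78 and 8.50 in controls (difference -0.86 ± 0.27 SE, adjusted p = 0.259). The sialidase gene Neu2 differed by -0.44 at a signal below the median probe set on every array.

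In the fucose pathway Fpgt, of the salvage route to GDP-fucose, differed by 0.37 ± 0.11 SE, the GDP-fucose transporter gene Slc35c1 by 0.33 ± 0.20 SE and Slc35c2 by -0.51 ± 0.15 SE. The UDP-galactose transporter gene Slc35a2 differed by 0.42 ± 0.15 SE, Gfpt2, an entry enzyme of hexosamine synthesis, by 0.28 and Slc35b4 by -0.27. C1galt1, the core 1 synthase whose product Gcnt1 branches, read 7.62, 8.18 and 8.43 in mutants and 7.69, 7.61 and 7.53 in controls, where mutant 1 lay within the control range (difference 0.47 ± 0.19 SE, adjusted p = 0.378 in limma's test). B4galnt2, which makes the Sda antigen of the gut, differed by -0.31 ± 0.11 SE and B4galnt1, of ganglioside synthesis, by -0.31 ± 0.12 SE, both without overlap between groups. None of these passed the test.

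Mgat3, which adds the bisecting GlcNAc to N-glycans, read 6.84, 6.92 and 6.50 in mutants and 7.25, 7.31 and 7.27 in controls, a difference of -0.52 ± 0.13 SE (adjusted p = 0.151 in limma's test). The mannosidase genes Man2a1 and Man1a2 differed by -0.25 and -0.31. In the list of protein O-fucosylation and Notch glycosylation Rfng differed by -0.36, Pofut2 by 0.37 and Lfng by 0.39. Of the sulfotransferases, Gal3st2 differed by -0.36, Chst4 by 0.18 and Chst1 by 0.12. The membrane mucin gene Muc4 read 7.43, 7.24 and 7.59 in mutants and 6.96, 6.32 and 7.00 in controls (difference 0.66 ± 0.19 SE, adjusted p = 0.225). Muc3 differed by -0.29 and Selplg, the P-selectin ligand that Gcnt1 and fucosyltransferases modify in leukocytes, by 0.48. None of these genes passed the test over all genes.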

How the data were processed

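Expression in distal jejunum was measured on Affymetrix arrays, 1 per animal, in 3 mutants and 3 controls. The deposited table holds log2 signals, 1 per probe set and array. How the authors corrected, summarised and normalised them is not stated in the labels, and the log2 scale was taken from the range of the values (array medians 3.93 to 3.98). Of 45101 probe sets, 64 control probe sets were left out. The platform annotation paired 34945 with 1 symbol, and the brightest of these was kept for each of 18193 genes. All 69 family symbols matched the RefSeq table.

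Groups were compared with limma 3.58.1 in R 4.3.3 (lmFit, eBayes, group as the only term, two-sided, Benjamini-Hochberg over all genes). The procedure was tried on simulated data whose variances were drawn from limma's own fit. These held no arrays that stood apart, so the trial cannot show how the test fares with such arrays. Intervals are 95% limma intervals. The number of arrays limits the precision. No filter on low values was applied. Members, lists and alternatives were chosen with earlier results of these data known. Named are Hnf4a, members with an unadjusted p under 0.05, the 3 smallest p of each gene family and of each list, and members whose probe sets oppose each other. Others are counted. A name outside the rule was chosen after its values were seen, as were members given by their difference alone for their role. Alternatives were other normalisations, a floor, a filter on dim genes, other probe set rules, other variance models, array weights, the replicate number, Y-linked signal, and arrays left out.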

Additional observations from a re-analysis of the deposited data

How the results depend on the processing

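With 1 array left out, 22 to 96 genes were called over the whole table, 0 to 2 family members and 0 to 1 of the pathway genes, beside 96, 1 and 1 with all arrays. Over all genes, 24 were called without control 2, 22 without control 3 and 41 without mutant 2. The count over all genes was 11 with a floor at the 20th percentile, 150 with array weights, 2 with no moderation of the variance, 196 with the Y-linked signal as a covariate and 4 without control 3 and mutant 2 together. Family members called were 2, St8sia6 and Gcnt1, under quantile normalisation, the dim filter, trend with robust fitting, array weights and the Y-linked covariate. They were 0 under limma with the floor, and without control 3 and mutant 2, where 7 and 6 members had an unadjusted p under 0.05, and 0 in the ordinary linear model, where 7 did. Of the pathway genes, 2 (Fuca2 and Npl) were called with the Y-linked covariate, and 0 with the floor, the mean of probe sets, no moderation, or without control 3 and mutant 2, where 17, 16, 11 and 11 had an unadjusted p under 0.05 in the same limma or linear fits. Why these counts moved was not tested. Fits with fewer arrays also have fewer residual degrees of freedom, and the part of that was not tested. With the replicate number as a block 62 genes were called, 48 of them among the 96, with 0 family members (10 at an unadjusted p under 0.05; St8sia6 adjusted p = 0.0503) and Fuca2 in limma's test. Deviations of same-numbered animals correlated at 0.07, 0.07 and -0.02. The animals numbered 1 correlated best with each other in both directions, those numbered 2 in 1 direction and those numbered 3 in neither. With 3 arrays per group this cannot decide whether same-numbered animals were paired. Among the genes named by the rule the direction turned in 9, none of them called, in 16 gene and setting pairs. Fut2, named outside the rule, also turned, with a difference of -0.07 without control 2 and -0.00687 without mutant 2, beside 0.03 with all arrays. The 9 were B3galt1 (-0.00214 to 0.186 with 1 array left out), B3galt2 (-0.0123 with the floor, -0.0484 without control 3 and mutant 2, -0.0268 to 0.219 with 1 array left out), B3galt5 (-0.0331 with the mean of probe sets, -0.0537 to 0.255 with 1 array left out), B4galt2 (0.00194 with array weights, -0.184 to 0.0109 with 1 array left out), Chst1 (-0.0109 to 0.354 with 1 array left out), Chst4 (-0.0559 to 0.34 with 1 array left out), Slc35b4 (0.0215 with the mean of probe sets), St3gal2 (-0.128 without control 3 and mutant 2, -0.181 to 0.398 with 1 array left out) and St3gal6 (-0.000172 with the mean of probe sets, -0.221 to 0.283 with 1 array left out). Signal near background limits the 14 members that read below the median probe set on every array.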
